A study of Rattus norvegicus with 18 samples.

Results

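The polysome share of an mRNA was compared across birth in rat lung, between newborn lung taken 5 h after birth (P1) and lung of fetal day 22 (FD22). The share was read as a ratio within a lysate, log2 signal in polysomal RNA minus log2 signal in total RNA. It used 12 of the 18 arrays of the series: 3 P1 lysates and 3 FD22 lysates, each with 1 polysomal and 1 total array. All animals were Wistar rats with no treatment named, and each lysate came from a separate litter. P1 pups had been born vaginally and FD22 fetuses delivered by Cesarean section, so age, birth and mode of delivery cannot be told apart. The 6 arrays of fetal day 19 (FD19, also Cesarean) entered the model through the spread between lysates, and are otherwise given as values. The comparison covered every probe set bright enough to test: 21675 of 31099 probe sets were, and those with 1 gene symbol stood for 11590 genes.

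An mRNA in translation carries several ribosomes, and a sucrose gradient sorts mRNAs by how many. Here the polysomal RNA came from fractions with more than 7 ribosomes on an mRNA, so an mRNA with a short coding region, which holds few ribosomes, is found there less readily. The mRNAs of ribosomal proteins and of several elongation factors belong to the TOP class: they begin with a C followed by an unbroken run of pyrimidines, and in cultured cells they move between stored particles and polysomes as growth conditions change, a switch governed by the kinase mTOR and the protein LARP1. Around birth the lung clears its liquid and takes up air breathing, while the pup loses its placental nutrient supply.

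The start regions of 7 mRNAs of the translation machinery are shown first. In all 7 the polysomal signal rose across birth without a called change in total RNA. The first 6 were chosen for display because they hold a pyrimidine run, and Rpl24, which rose as well, because it does not. Each line gives 60 bases, from 40 before to 20 after the start that RefSeq gives the gene on build GRCr8, in the sense direction. Capitals mark the longest run that begins with C and goes on with at least 7 further C or T.
Rpl21: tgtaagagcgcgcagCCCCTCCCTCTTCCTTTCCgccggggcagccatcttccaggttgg
Rpl4: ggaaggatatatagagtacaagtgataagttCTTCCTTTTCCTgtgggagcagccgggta
Rpl14: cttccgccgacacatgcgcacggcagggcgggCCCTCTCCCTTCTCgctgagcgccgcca
Rpl7a: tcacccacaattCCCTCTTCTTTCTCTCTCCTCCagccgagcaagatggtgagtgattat
Rps3: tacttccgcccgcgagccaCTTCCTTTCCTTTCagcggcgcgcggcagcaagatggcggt
Eef1b2: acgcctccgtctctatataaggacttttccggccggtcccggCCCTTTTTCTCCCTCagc
Rpl24: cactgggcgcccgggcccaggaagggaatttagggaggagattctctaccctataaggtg
The next 4 are from the 12 genes of smallest p whose ratio was lower at P1, and none of these 4 holds such a run.
Arpc5l: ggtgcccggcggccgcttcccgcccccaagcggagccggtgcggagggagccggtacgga
Insig1: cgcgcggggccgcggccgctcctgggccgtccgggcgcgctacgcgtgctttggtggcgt
Tmem123: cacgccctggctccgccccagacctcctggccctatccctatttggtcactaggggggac
Ppp1r2: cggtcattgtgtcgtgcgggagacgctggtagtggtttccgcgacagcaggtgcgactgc
The windows lie, on GRCr8, for Rpl21 at chr12:13386134-13386193 (minus strand), Rpl4 at chr8:73566437-73566496 (plus strand), Rpl14 at chr8:129163580-129163639 (plus strand), Rpl7a at chr3:30637096-30637155 (plus strand), Rps3 at chr1:163195757-163195816 (minus strand) and Eef1b2 at chr9:72074051-72074110 (plus strand). That of Rpl24 is chr11:58128386-58128445 (minus strand). Those of the other 4 lie for Arpc5l at chr3:43169562-43169621 (plus strand), Insig1 at chr4:8057750-8057809 (minus strand), Tmem123 at chr8:13206883-13206942 (plus strand) and Ppp1r2 at chr11:82977594-82977653 (plus strand).
A run of this kind was found in this window, on the sense strand, for 23 of the 38 cytosolic ribosomal protein genes with a sequence (60.5%), against 1766 of 9592 genes tested (18.4%) and 5058 of 27457 promoters of the table (18.4%). It was found for 14 of 45 translation initiation factor genes (31.1%) and for 2 of 9 genes on a list of elongation factors and other TOP mRNAs (22.2%). Among the 12 genes of smallest p with a lower ratio it was found for 0 of the 10 with a sequence. Among the 12 with a higher ratio it was found for 2 of 9 (22.2%). The last 2 sets are too small to be told from the 18.4% of genes tested. Annotated starts can lie some bases from the true cap, and a match describes letters, not a working element.

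The labelled tissue was borne out by its markers. The summed signal of 21 alveolar type II cell genes lay between 48328 and 63658 in P1 polysomal arrays, against 43897 to 51798 in FD22 polysomal arrays. Each array had the same trimmed mean signal of 150, so a ratio is relative to the rest of the array and a shift of the whole mRNA pool on or off polysomes does not show. Array medians ran from 51.6 to 73.5. The FD22 litters stood apart from each other. FD22 lysate 2 carried liver mRNAs in both its arrays: Alb read 4892 in polysomal and 5662 in total RNA, against at most 72.7 and 147 in the other lysates of the comparison, and Afp read 1443 and 1462. In FD22 lysate 3 the ratios spread more widely, with an interquartile range of 0.90 against 0.61 to 0.73 in the other 5 lysates. Heart mRNAs also differed between litters, and Nppa read 2709 and 1074 in the polysomal arrays of FD22 lysates 3 and 1, against 71.6 in that of lysate 2 and 79.2 to 149.9 in P1 polysomal arrays.

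No single mRNA passed the test for a change of polysome share across birth. In the limma fit of the 9 lysate ratios, 0 of 21675 probe sets (0%) had an adjusted p under 0.05 in either direction, and the smallest adjusted p was 0.140. At an unadjusted p under 0.05 there were 1545 probe sets (7.13%), of which 634 were higher at P1 (2.93%) and 911 lower (4.2%). The 3 P1 lysates lay entirely on one side of the 3 FD22 lysates for 2537 probe sets (11.7%), with P1 higher for 1193 (5.5%) and lower for 1344 (6.2%), and for 146 (0.674% of those tested) the means also differed over 2-fold. Over genes, the median ratio change was 0.02 on the log2 scale, with a 5th percentile of -0.53 and a 95th percentile of 0.48. The median 95% interval of a gene reached 0.49 to either side of its estimate, which is the precision that 3 lysates a stage gave. The count of 0 depended on the filter on dim probe sets: with a filter at the 60th percentile of signal 12 probe sets were called lower and 0 higher, and all but that of Tmem38b belong to genes described below. Every ratio change below is a value with its error, not a called change.

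The separate changes of total and of polysomal RNA gave more calls. They were fitted over 18 arrays with 12 residual degrees of freedom, against 6 for the ratio. That fit also left out the pairing of arrays within a lysate, so its counts and those of the ratio are not like for like. Between P1 and FD22 limma called 1807 probe sets in polysomal RNA (8.34%), of which 821 were higher at P1 (3.79%) and 986 lower (4.55%), and 861 in total RNA (3.97%), of which 479 were higher (2.21%) and 382 lower (1.76%). In whole lung such a change can come from fewer or more cells of a type or from less or more RNA per cell, which cannot be told apart. The 2 RNAs were called the same way for 582 probe sets, which is 32.2% of the polysomal calls and 67.6% of the total calls. Of the polysomal calls, 1224 had no call in total RNA, and 278 total calls had none in polysomal RNA. Counted over genes, 328 rose in polysomal RNA without a call in total RNA, and the P1 lysate ratios of 111 of them lay above all FD22 lysates. Another 494 fell in polysomal RNA without a call in total RNA, and for 227 the P1 ratios lay below all FD22 lysates. Among all genes the P1 ratios lay above all FD22 lysates for 6.4% and below for 6.59%. Both counts are a description, because the genes were picked on arrays that also make up the ratio, which fixes the side. A single probe set was called in opposite directions, that of Tmem123.

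**Figure D1:**
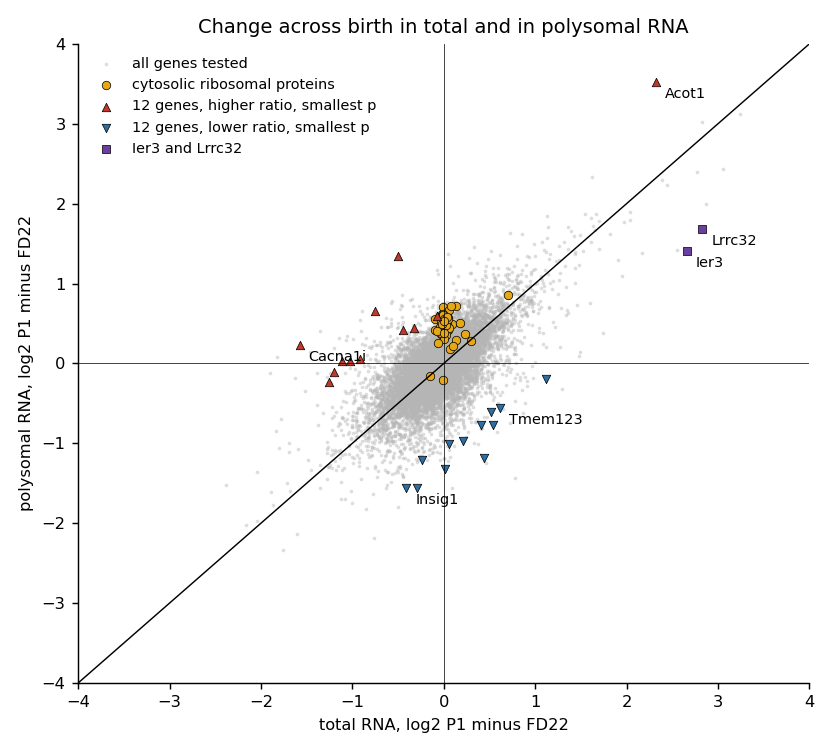
Change across birth of each gene in total RNA (x axis) and in polysomal RNA (y axis), both as log2 P1 minus FD22, with the line of equal change. Cytosolic ribosomal protein genes (orange circles) stand near 0 on the x axis and mostly above 0 on the y axis. The 12 genes of smallest p with a lower ratio (blue) lie below the line and the 12 with a higher ratio (red) above it, as their selection requires.

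The mRNAs of cytosolic ribosomal proteins, the structural proteins of the translating ribosome, had the largest median ratio change of the 35 gene lists examined. Of 44 measured, 30 rose in polysomal RNA at P1 and 0 fell, while 0 were called in total RNA (2 of 44 at an unadjusted p under 0.05, both higher). Over all genes, 4.74% rose in polysomal RNA and 2.62% in total RNA (3.79% and 2.21% of probe sets). The median change was 0.50 in polysomal RNA and 0.01 in total RNA, on the log2 scale. The ratio was above its FD22 mean for 42 of 44 (53.1% of all genes), with a median ratio change of 0.50 against 0.02 over all genes. None passed the adjusted test of the ratio. At an unadjusted p under 0.05, 13 were higher and 0 lower, and for 16 of the 44 all P1 lysates lay above all FD22 lysates (5.5% of probe sets).

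These mRNAs were nevertheless under-represented on large polysomes at both stages. The median ratio was -0.80 at P1 and -1.30 at FD22. By lysate the list median was -0.74, -0.45 and -1.12 at P1, and -0.96, -1.33 and -1.49 at FD22. P1 lysate 3 lay below FD22 lysate 1, so the list medians of the stages overlapped. The FD19 lysates had -0.84, -0.97 and -1.05. The summed polysomal signal of the 44 genes was 88651 to 117569 in P1 arrays and 65331 to 73080 in FD22 arrays, without overlap. Their summed total signal was 151423 to 188461 in P1 arrays and 150820 to 185537 in FD22 arrays, nearly the same range.

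**Figure D2:**
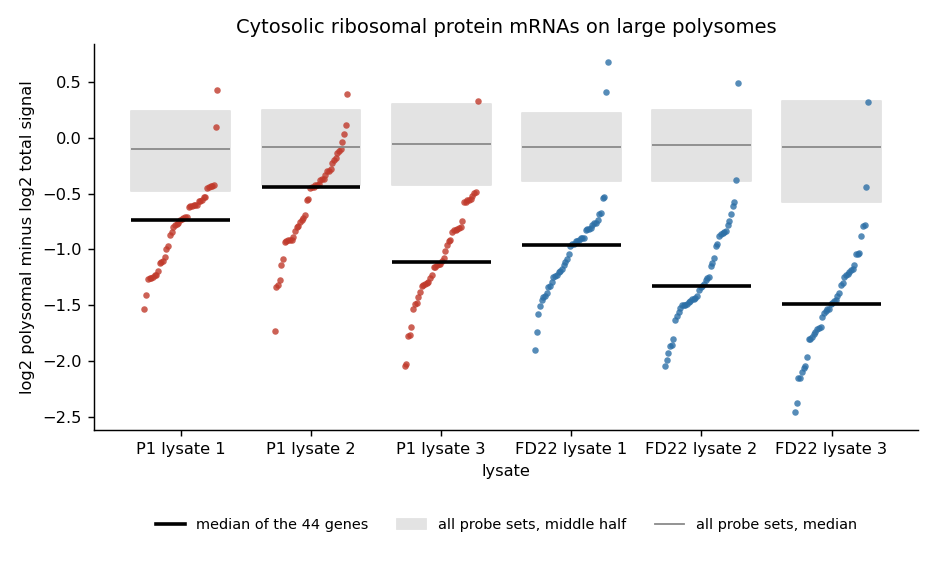
Ratio of each of the 44 cytosolic ribosomal protein genes (points, sorted within a lysate; y axis in log2) in the 3 P1 lysates (red) and the 3 FD22 lysates (blue). The grey band spans the middle of all probe sets from the 25th to the 75th percentile, and the black line is the median of the 44, which ran from -1.12 to -0.45 at P1 and from -1.49 to -0.96 at FD22.

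Rpl21, a protein of the large subunit, had the smallest p of the group. Its polysomal signal was 1655, 1525 and 1394 in P1 arrays and 1145, 1092 and 882 in FD22 arrays, while its total signal was 2858, 2519 and 2831 at P1 and 3145, 3086 and 2567 at FD22. The stages did not overlap in polysomal RNA and did in total RNA. Polysomal RNA rose by 0.56 ± 0.12 (log2, SE, n = 3 arrays each; limma adjusted p = 0.00855), and the ratio change was 0.65 ± 0.23 (n = 3 lysates each, adjusted p = 0.573).

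Rpl4 and Rpl24, also of the large subunit, and Rps3, of the small subunit near the mRNA entry site, behaved alike. Rpl4 read 1773, 2406 and 2026 in P1 polysomal arrays and 1255, 1328 and 1149 in FD22 polysomal arrays. Rps3 read 2357, 3115 and 2142 in P1 polysomal arrays and 1616, 1669 and 1660 in FD22 polysomal arrays. In both genes every P1 array was above every FD22 array. Polysomal RNA rose by 0.72 for Rpl4 (adjusted p = 0.00063), by 0.70 for Rpl24 (adjusted p = 0.00172) and by 0.60 for Rps3 (adjusted p = 0.00378). Their ratio changes were 0.59 ± 0.23, 0.72 ± 0.26 and 0.61 ± 0.24. Rplp0, of the ribosomal stalk, had lysate ratios of -1.53, -1.34 and -1.54 at P1 and -1.90, -1.87 and -2.10 at FD22.

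The smallest ratio changes were those of 3 relatives of ribosomal proteins, Rps27l at -0.20 ± 0.40, Rpl7l1 at -0.02 ± 0.14 and Rpl26l1 at 0.00 ± 0.25. Core subunits also came within 1 SE of 0, with Rpl35a at 0.11 ± 0.23, Rps28 at 0.12 ± 0.33 and Rpl39 at 0.14 ± 0.29. Ribosomal protein genes have many processed copies in the genome, and probe sets cannot separate near-identical ones. The count of 30 depended on single lysates: it was 8 without P1 lysate 2, 14 without FD22 lysate 2, 15 without FD22 lysate 3 and 5 with lysates numbered 1 and 2 only (an alternative chosen after seeing the data). It was 18 after quantile normalization, where the median ratio change was 0.29. The number that fell was 0 and the number called in total RNA 0 in each of these settings.

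The other TOP mRNAs measured followed in part. Of 10 on the list, 6 rose and 0 fell in polysomal RNA (4.74% and 5.79% of all genes). In total RNA 0 were called (1 at an unadjusted p under 0.05, higher). At that threshold 1 member was lower in polysomal RNA, and over the settings up to 1 was called lower there. The median ratio change was 0.31 and 9 of 10 were above 0 (53.1% of all genes). Eef1b2, which recharges the elongation factor that brings aminoacyl-tRNA to the ribosome, had polysomal signals of 1744, 2210 and 1755 at P1 and 1229, 1176 and 1198 at FD22. Its total signals were 2116, 2203 and 2419 at P1 and 2075, 2386 and 2103 at FD22, and overlapped. Polysomal RNA rose by 0.65 ± 0.11 (adjusted p = 0.001), and the lysate ratios were -0.28, 0.00 and -0.46 at P1 and -0.75, -1.02 and -0.81 at FD22 (ratio change 0.61 ± 0.20, adjusted p = 0.528). Rack1, a protein of the small subunit, and Eef1g, another elongation factor subunit, had ratio changes of 0.53 and 0.52. Eef1a1, the elongation factor itself, had 0.31 ± 0.20 with polysomal RNA not called. Eef2, which moves the ribosome along, had 0.10 ± 0.21, and Nap1l1, a histone chaperone, -0.10 ± 0.18. The polysomal count was 2 with lysates numbered 1 and 2 only, and 3 both without P1 lysate 2 and without FD22 lysate 2.

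Translation initiation factors, which load the ribosome onto the mRNA, had a smaller median. Of 49 genes, 15 rose and 1 fell in polysomal RNA (4.74% and 5.79% of all genes). In total RNA 3 rose and 0 fell (2.62% and 2.31% of all genes). The median ratio change was 0.18, and 32 of 49 lay above 0 (53.1% of all genes). Eif3f, a subunit of the scaffold that binds the small subunit, had lysate ratios of -0.53, -0.36 and -0.95 at P1 and -0.97, -1.21 and -1.31 at FD22. Its ratio change was 0.55 ± 0.24, and polysomal RNA rose by 0.59 (adjusted p = 0.00921) with total RNA not called. Eif2s3, which carries the initiator tRNA, had the smallest p for the ratio (0.49 ± 0.20, adjusted p = 0.649) and no polysomal call (0.64, adjusted p = 0.0574). Eif4ebp1, the mTOR-controlled inhibitor of cap binding, was on the other side with -0.55 ± 0.28. Over the settings tried, the number that rose on polysomes was between 2 and 17, with 6 without P1 lysate 2, 7 without P1 lysate 1 or FD22 lysate 1, 8 without P1 lysate 3 and 9 without FD22 lysate 2, and the median ratio change between 0.10 and 0.22. A list of 35 genes of mTOR and translation signalling had a median ratio change of -0.07. In polysomal RNA 1 gene was higher and 2 lower, near the shares of all genes, with the same counts in total RNA.

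Proteasome subunits, which form the machine that degrades tagged proteins, were over-represented on polysomes at both stages. By list medians the ratio was 0.57 at P1 and 0.35 at FD22. Of 37, 33 had a ratio change above 0 (53.1% of all genes), with a median of 0.23. In polysomal RNA 5 rose and 2 fell (4.74% and 5.79% of all genes). In total RNA 0 were called (3 higher and 4 lower at an unadjusted p under 0.05). Psmb10, a catalytic subunit of the immune form, had the smallest p for the ratio (0.50 ± 0.19, adjusted p = 0.622). Psmc5, an ATPase of the regulatory particle, had lysate ratios of 0.80, 1.05 and 1.35 at P1 and 0.44, 0.56 and 0.75 at FD22. The 2 that fell, a share near that of all genes, were Psmd10, an assembly chaperone, and Psmb9, another subunit of the immune form. The number that rose was 0 without FD22 lysate 1 or P1 lysate 2 and 3 without P1 lysate 3, and ran up to 12 over the settings.

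Nuclear genes for mitochondrial proteins had list medians near 0. The 77 oxidative phosphorylation subunits had a median ratio change of 0.01, with 0 that rose and 10 that fell in polysomal RNA (5.79% of all genes fell), and 0 called in total RNA (3 at an unadjusted p under 0.05, all lower). Those that fell included Uqcrq of complex III and Ndufa2 and Ndufb5 of complex I. Uqcrq read 403, 385 and 339 in P1 polysomal arrays and 948, 907 and 517 in FD22 polysomal arrays. In total RNA it read 678, 752 and 791 at P1 and 709, 886 and 812 at FD22, with overlap. Its ratio change was -0.90 ± 0.29 (adjusted p = 0.501), and polysomal RNA fell by 1.02 on the log2 scale (adjusted p = 0.00224). The 73 mitochondrial ribosomal proteins had a median ratio change of 0.02, with 0 that rose and 6 that fell in polysomal RNA and 0 called in total RNA (4 higher and 7 lower at an unadjusted p under 0.05). Their 6 are a share near that of all genes, and numbered 1 without FD22 lysate 1 or without P1 lysate 3, and 3 without FD22 lysate 2 or without P1 lysate 1. Mrpl12 and Mrps18a were 2 of the 6, with ratio changes of -0.88 ± 0.25 and -0.59 ± 0.19. On the other side Mrpl42, the member of smallest p, had 0.91. For oxidative phosphorylation the polysomal fall was counted for 3 genes with lysates numbered 2 and 3 only for 6 without FD22 lysate 1, FD22 lysate 2 or P1 lysate 3, and for 16 without FD22 lysate 3.

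**Figure D3:**
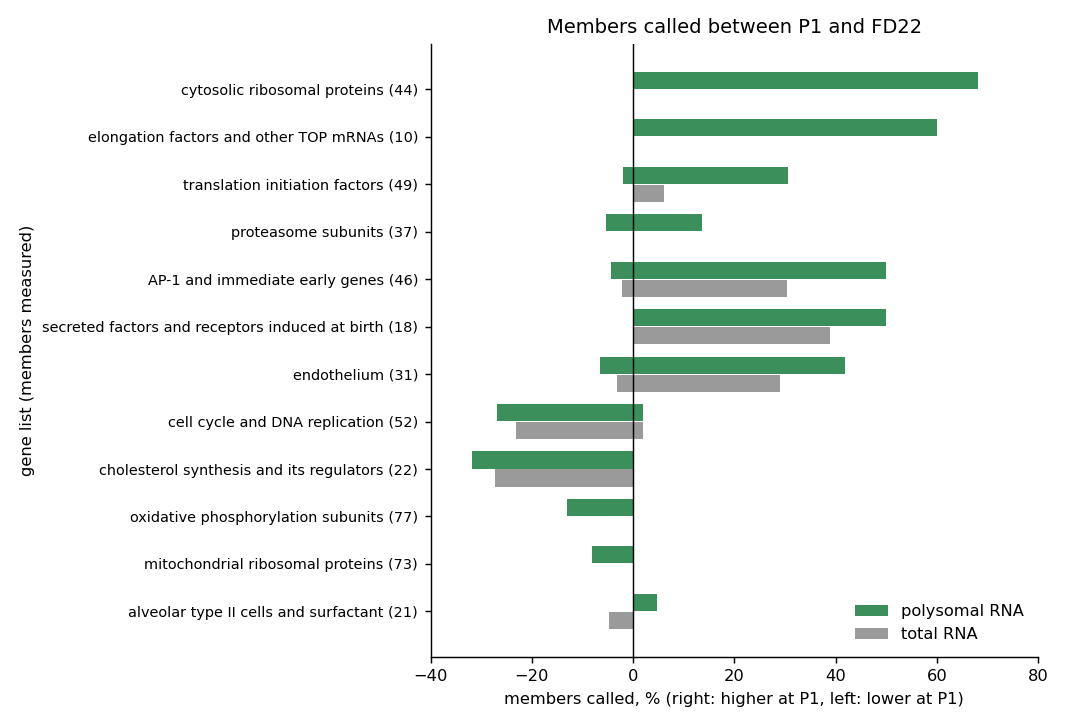
Share of the measured members of 12 gene lists called between P1 and FD22 (x axis, percent; to the right those higher at P1, to the left those lower), in polysomal RNA (green) and in total RNA (grey). The cytosolic ribosomal protein list has 30 of 44 members on the right in polysomal RNA and none in total RNA.

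The 12 genes of smallest p with a lower ratio at P1 were chosen on that ratio, so their values are a description. They were Tmem123, Ccnyl1, Tmem9b, Tm2d2, Arpc5l, Insig1, Sec11c, Ppp1r2, Crebzf, Tgfa, Txnl4a and Copz2, with ratio changes from -1.63 to -0.97 and adjusted p from 0.140 to 0.217. All 12 had the 3 P1 lysates below the 3 FD22 lysates. All 12 also had the P1 lysates below the 3 FD19 lysates (12.5% of all genes did). This is no independent support, because the low P1 values were chosen and the FD19 lysates entered the p through the spread. In polysomal RNA 10 of the 12 fell and 0 rose (671 of 11590 genes, or 5.79%, fell). In total RNA 2 rose and 0 fell.

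Insig1, an endoplasmic reticulum protein that holds back the SREBP activation of cholesterol synthesis, read 372, 253 and 332 in P1 polysomal arrays and 1033, 1012 and 799 in FD22 polysomal arrays. Its total signal was 803, 543 and 706 at P1 and 999, 907 and 805 at FD22, with the nearest arrays almost touching. The lysate ratios were -1.10, -1.08 and -1.08 at P1 and 0.05, 0.16 and -0.01 at FD22. Polysomal RNA fell by 1.56 ± 0.16 on the log2 scale (adjusted p = 1.32e-05), total RNA differed by -0.41 ± 0.16 without a call (adjusted p = 0.194), and the ratio change was -1.15 ± 0.17 (95% interval -1.54 to -0.77, adjusted p = 0.154).

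Arpc5l, a subunit of the Arp2/3 complex that branches actin filaments, differed in polysomal RNA at like total signals. It read 225, 227 and 199 in P1 polysomal arrays and 600, 589 and 467 in FD22 polysomal arrays. Its total signals were 433, 564 and 520 at P1 and 479, 534 and 483 at FD22. Total RNA differed by 0.01 ± 0.13 on the log2 scale and polysomal RNA fell by 1.32 ± 0.13 (adjusted p = 8.85e-06), which gave a ratio change of -1.33 ± 0.19 (adjusted p = 0.140).

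Tmem123, a mucin-like protein of the cell surface, was the single gene called in opposite directions. Its polysomal signal was 865, 656 and 731 at P1 and 1248, 1241 and 856 at FD22, and its total signal was 1573, 1191 and 1247 at P1 and 1024, 907 and 700 at FD22. Total RNA rose by 0.61 ± 0.17 (adjusted p = 0.0439) and polysomal RNA fell by 0.56 ± 0.17 on the log2 scale (adjusted p = 0.0445). One P1 polysomal array lay just above the lowest FD22 polysomal array. The lysate ratios were -0.86, -0.86 and -0.77 at P1 against 0.28, 0.45 and 0.29 at FD22, and 0.56, 0.31 and 0.52 at FD19. Ccnyl1, a relative of cyclin Y, was the other gene of the 12 that rose in total RNA. It read 383, 416 and 356 in P1 total arrays and 174, 207 and 145 in FD22 total arrays, while its polysomal signal was 141, 165 and 157 at P1 and 187, 200 and 149 at FD22. Total RNA rose by 1.12 (adjusted p = 0.000251), with no call in polysomal RNA (-0.20, adjusted p = 0.504).

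Ppp1r2, an inhibitor of protein phosphatase 1, had the largest change of the 12 and 3 probe sets that can be set side by side. Its polysomal signal was 719, 497 and 517 at P1 and 1096, 1493 and 1356 at FD22, and its total signal was 967, 1124 and 1061 at P1 and 848, 980 and 554 at FD22. The ratio changes of the 3 probe sets were -1.63, -1.37 and -1.32. Without FD22 lysate 3 the first of these was -1.36. Crebzf, a bZIP transcription factor, had 4 probe sets, all lower (-1.26, -1.01, -0.58 and -1.39), and read 104, 77.0 and 91.7 in P1 polysomal arrays and 343, 270 and 228 in FD22 polysomal arrays. Tgfa, a ligand of the EGF receptor, had -1.12 on both of its probe sets, with no call in polysomal or total RNA. Among the 3277 genes with at least 2 probe sets, all lay on the same side of 0 for 1688 (51.5%) and were also apart between stages for 59 (1.8%). Ppp1r2 and Tgfa were the only 2 of these 59 with every probe set below -1.

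The other 5 had a role in membranes, secretion or splicing where one is known. Sec11c, a catalytic subunit of the signal peptidase, read 113, 118 and 112 in P1 polysomal arrays and 293, 273 and 149.5 in FD22 polysomal arrays. Copz2 is a coatomer subunit of Golgi vesicles and Txnl4a a component of the U5 particle of the spliceosome, and both fell in polysomal RNA (by 1.21 and 1.01 on the log2 scale) with total RNA not called. Tmem9b, a lysosomal membrane protein, fell by 0.77 (adjusted p = 0.0481), and so did Tm2d2, a membrane protein of the TM2 family (0.77, adjusted p = 0.0144).

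**Figure D4:**
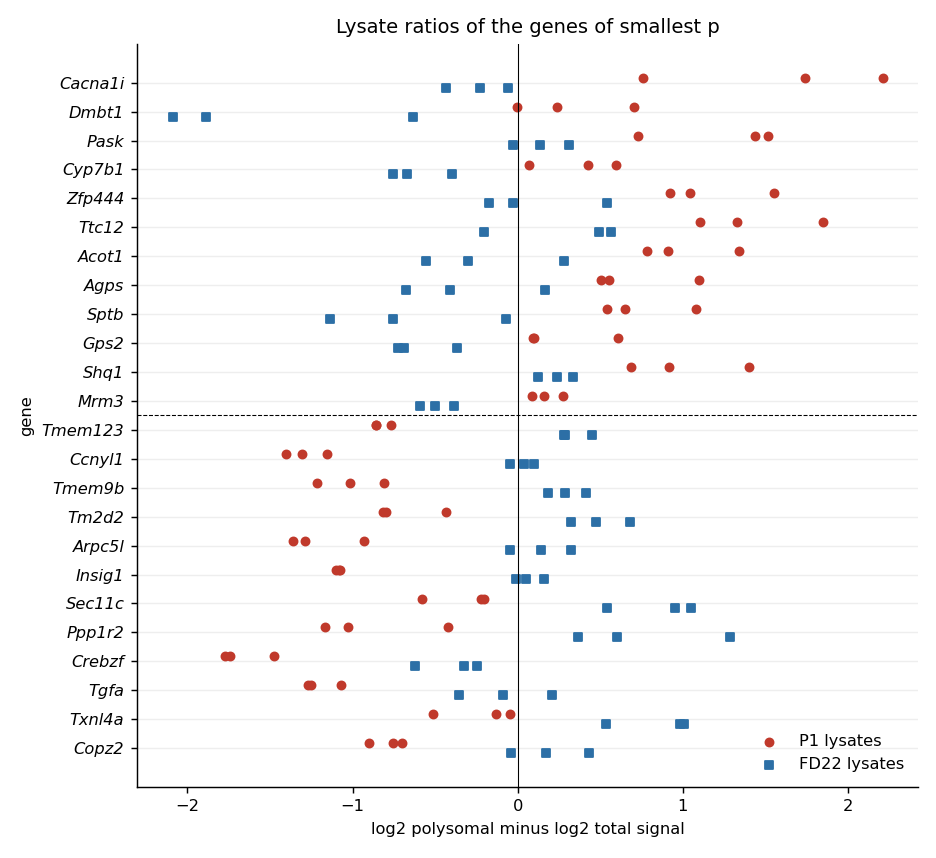
Lysate ratios (x axis, log2 polysomal minus log2 total signal) of the 12 genes of smallest p with a higher ratio (above the dashed line) and the 12 with a lower ratio (below it), in the P1 lysates (red circles) and FD22 lysates (blue squares). In each gene the 3 P1 lysates lie on one side of the 3 FD22 lysates, as in 11.7% of all probe sets.

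The 12 genes of smallest p with a higher ratio at P1 were likewise chosen on that ratio, so their values are a description. They differed from the 12 with a lower ratio in level and in which RNA was more often called. Their median level was 5.59 on the log2 scale against 8.21 for the 12 with a lower ratio and 7.46 over all genes, so they lay nearer to background. In total RNA 4 of the 12 fell and 1 rose (2.31% and 2.62% of all genes). In polysomal RNA 2 rose and 0 fell (4.74% and 5.79% of all genes). The choice on the ratio favours falls in total RNA and rises in polysomal RNA. Cacna1i, a T-type calcium channel, had the largest fall in total RNA: it read 28, 9.9 and 9.9 in P1 total arrays and 70.4, 47.9 and 46.8 in FD22 total arrays, below the signal filter of 40.8 at P1. Its polysomal signal was 51.1, 45.9 and 65.9 at P1 and 50.6, 45.8 and 39.1 at FD22, with overlap. The ratio change was 1.81 ± 0.31 (adjusted p = 0.217).

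Acot1, a cytosolic acyl-CoA thioesterase of fatty acid metabolism, was the exception in this set because both RNAs rose. It read 320, 482 and 274 in P1 polysomal arrays and 15.9, 20.1 and 47.3 in FD22 polysomal arrays. In total RNA it read 168, 277 and 105 at P1 and 26, 26 and 38 at FD22. Polysomal RNA rose by 3.53 ± 0.34 (adjusted p = 8.85e-06), total RNA by 2.32 ± 0.34 (adjusted p = 0.000626), and the ratio change was 1.20 ± 0.29 (adjusted p = 0.301). Near-identical thioesterase genes lie beside it and may share the probe set. Dmbt1, a secreted mucosal receptor for microbes, rose in polysomal RNA by 1.35 ± 0.36 (adjusted p = 0.0269) at low signals, 20.3, 26.3 and 22.6 at P1 and 3.5, 7.9 and 6.1 at FD22. The others were Pask, Cyp7b1, Zfp444, Ttc12, Agps, Sptb, Gps2, Shq1 and Mrm3, with ratio changes from 0.67 to 1.41. The second probe set of Zfp444 gave 0.26 and that of Mrm3 -0.11.

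The wider set of genes whose lysates were apart with a ratio change over 2-fold (0.674% of probe sets) was divided in like manner. Of 50 such genes with a lower ratio, 25 fell and 2 rose in polysomal RNA, and 7 rose in total RNA. Of 25 with a higher ratio, 3 rose in polysomal RNA, and 6 fell and 1 rose in total RNA. Among all genes 4.74% rose and 5.79% fell in polysomal RNA, and 2.62% rose and 2.31% fell in total RNA. The counts for the 50 and the 25 are a description and no enrichment. These genes were picked on a ratio made from the same arrays, which favours the side of each change. The median level was 7.08 for the 50 and 5.07 for the 25, on the log2 scale.

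Immediate early genes, which cells switch on within minutes of a stimulus, were called mostly as higher in both RNAs. Of 46, 23 rose and 2 fell in polysomal RNA, and 14 rose and 1 fell in total RNA (4.74% and 2.62% of all genes rose). Of the ratio changes 25 were above 0 and 21 below, with a median of 0.04 and a range from -1.24 to 0.84. Without FD22 lysate 2, and likewise without P1 lysate 2, 15 rose in polysomal RNA. Over all the settings 9 to 25 rose in polysomal and 6 to 18 in total RNA. Fos, a subunit of the AP-1 factor, rose by 1.62 in polysomal and 1.82 in total RNA, with a ratio change of -0.20 ± 0.31. Ier3, a survival factor induced by stress, stood out. It read 302, 259 and 217 in P1 polysomal arrays and 116, 82.6 and 84.1 in FD22 polysomal arrays, against 825, 950 and 838 in P1 total arrays and 157, 131 and 115 in FD22 total arrays. Both RNAs separated the stages, and the total rose more: total RNA by 2.66 ± 0.19 (adjusted p = 2.97e-07) and polysomal RNA by 1.41 ± 0.19 (adjusted p = 0.000133). The lysate ratios were -1.43, -1.85 and -1.93 at P1 and -0.42, -0.63 and -0.43 at FD22, a ratio change of -1.24 ± 0.25 (adjusted p = 0.249).

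A list of 18 secreted factors and receptors was named for genes induced at birth and drawn up with earlier results of these data known. Its counts are therefore a description. In polysomal RNA 9 rose and in total RNA 7 (4.74% and 2.62% of all genes rose). In either RNA 0 fell (1 lower in polysomal RNA at an unadjusted p under 0.05). Over the settings 5 to 10 rose in polysomal and 4 to 9 in total RNA, and up to 1 fell in each. Lrrc32, which docks latent TGF-beta on the cell surface, read 198, 98.5 and 106 in P1 polysomal arrays and 39.0, 37.6 and 31.5 in FD22 polysomal arrays. In total RNA it read 129, 67.4 and 84.5 at P1 and 6.0, 6.5 and 12.4 at FD22. The FD22 total signals are close to the constant added before log2, so that the ratio change of -1.14 ± 0.26 (adjusted p = 0.291) depends on it, and over the settings it ran from -1.57 to -0.45. Tnfrsf12a, the receptor of TWEAK, rose by 2.44 in polysomal and 3.05 in total RNA, with lysate ratios of 0.02, -0.23 and -0.15 at P1 and 0.57, 0.64 and 0.27 at FD22 (ratio change -0.61 ± 0.21).

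Of 31 endothelial genes, 13 rose and 2 fell in polysomal RNA and 9 rose and 1 fell in total RNA (4.74% and 2.62% of all genes rose), with a median ratio change of 0.05. Over the settings 5 to 14 rose in polysomal and 2 to 11 in total RNA. The polysomal count was 8 without FD22 lysate 2 or P1 lysate 1, and the total count was 5 without FD22 lysate 2 or any 1 P1 lysate. Their summed signal was 25118 to 27178 in P1 polysomal arrays and 18199 to 20093 in FD22 polysomal arrays, and 21786 to 23629 in P1 total arrays and 16778 to 18393 in FD22 total arrays. Egfl7, a secreted regulator of vessel growth, read 1420, 1607 and 1083 in P1 polysomal arrays and 434, 499 and 369 in FD22 polysomal arrays. In total RNA it read 925, 1109 and 920 at P1 and 556, 514 and 718 at FD22. Polysomal RNA rose by 1.64 ± 0.17 and total RNA by 0.73 ± 0.17. The ratio changes of its 2 probe sets were 0.91 and 0.98, the first with an SE of 0.23 (adjusted p = 0.378), and without FD22 lysate 3 the first was 0.66. Plvap, of the endothelial diaphragm, had 0.61 ± 0.16, and the vascular peptide Apln -0.61 ± 0.19. Egfl7 and Apln lay on opposite sides within the same cell type list.

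**Figure D5:**
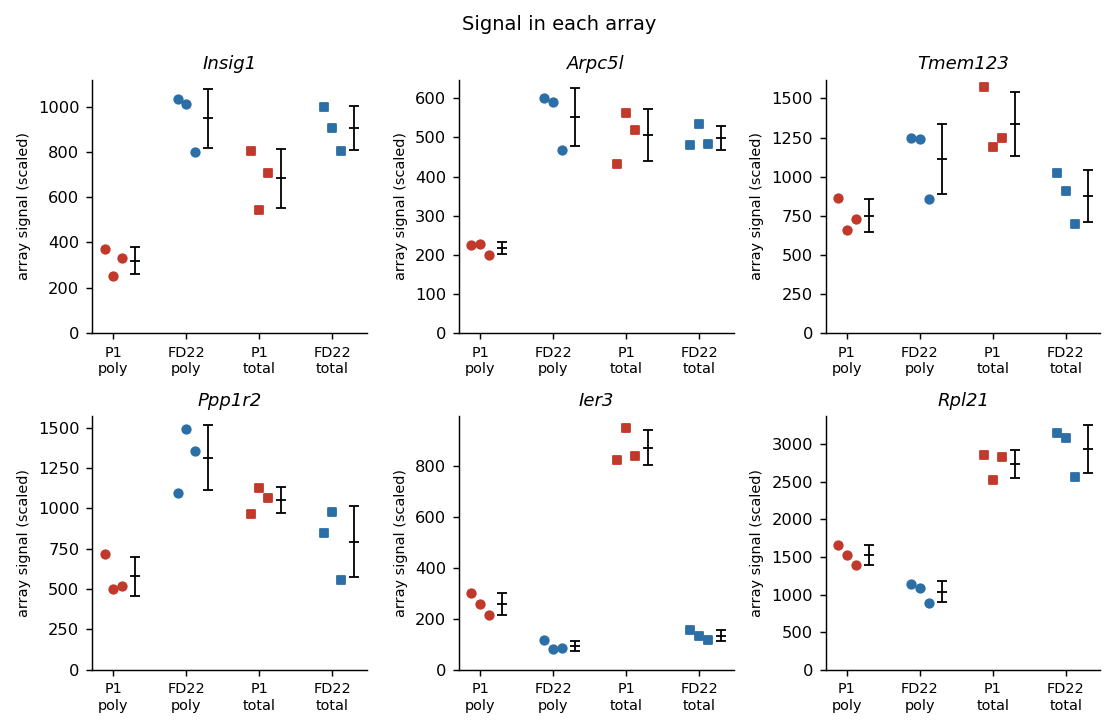
Signal of 6 genes in each of the 12 arrays (y axis, scaled array signal from 0), in polysomal (circles) and total RNA (squares) of P1 (red) and FD22 (blue). Black bars give mean and SD of 3 arrays. Insig1 and Arpc5l are low in P1 polysomal RNA, Ier3 is high in P1 total RNA, and Rpl21 is higher in P1 than in FD22 polysomal RNA at like total signals.

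Genes of the air-breathing lung showed no resolved shift of polysome share. The surfactant protein genes had lysate ratios that overlapped between stages. Sftpc, the hydrophobic surfactant protein made by type II cells, had -0.44, 0.13 and -0.33 at P1 and -0.48, -0.32 and -0.94 at FD22, a change of 0.37 with a 95% interval from -0.14 to 0.88. The changes were 0.09 for Sftpa1 (-0.27 to 0.46), 0.15 for Sftpb (-0.30 to 0.60) and 0.19 for Sftpd (-0.36 to 0.74). After quantile normalization Sftpa1 was at -0.06 and Sftpb at -0.09. The subunits of the epithelial sodium channel, which absorbs lung liquid, had -0.09 for Scnn1a (-0.70 to 0.51), -0.18 for Scnn1b (-0.70 to 0.35) and 0.59 for Scnn1g (-0.03 to 1.21), with -0.08 on another probe set of Scnn1g. Vegfa, the vessel growth factor, had -0.04 (-0.45 to 0.37) and the fetal growth factor Igf2 0.02 (-0.42 to 0.46). These intervals do not show that the share was the same at both stages.

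Atf4 and Amd1 have upstream reading frames that are known to control their translation. Atf4, the transcription factor of the integrated stress response, rose by 0.94 in polysomal RNA (adjusted p = 0.00279) and by 0.65 in total RNA (adjusted p = 0.0447), with lysate ratios of -0.71, -0.37 and -0.65 at P1 and -0.70, -1.005 and -0.90 at FD22 (ratio change 0.29 ± 0.21). Amd1, a key enzyme of polyamine synthesis, read 168, 149 and 149 in P1 polysomal arrays and 494, 328 and 382 in FD22 polysomal arrays. Its total signal was 362, 335 and 343 at P1 and 551, 382 and 475 at FD22. Polysomal RNA fell by 1.32 ± 0.17 on the log2 scale (adjusted p = 0.000127), total RNA was not called (-0.42, adjusted p = 0.211), and the lysate ratios were -1.08, -1.14 and -1.17 at P1 against -0.15, -0.22 and -0.31 at FD22 (ratio change -0.90 ± 0.17, adjusted p = 0.217). The list of 26 upstream-reading-frame and stress response genes had a median ratio change of 0.10. In polysomal RNA 7 rose and 3 fell (4.74% and 5.79% of all genes), and in total RNA 8 and 3 (2.62% and 2.31%). Without FD22 lysate 2 or P1 lysate 1, 4 rose in total RNA, and 5 without P1 lysate 3. The number that fell in total RNA was 1 without FD22 lysate 1, FD22 lysate 2, P1 lysate 2 or P1 lysate 3.

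Within each stage, polysomal and total signal also differed. At P1 limma called 5525 (25.5%), with 2376 above 0 (11%) and 3149 below (14.5%), and at FD22 5040 (23.3%), with 2108 above 0 (9.73%) and 2932 below (13.5%). Of the 12 genes with a lower ratio change, 10 were below 0 at P1 and 0 above, whereas at FD22 5 were above 0 and 0 below. Both counts rest on the lysates that chose the genes. Rpl4, Rpl7a, Rpl14, Rpl24, Rpl26l1, Rpl35a, Rpl39, Rpl7l1, Rps27l, Rps28, Rps3, Rplp0, Rack1, Eef1g, Eef2, Eif3f, Eif4ebp1, Psmc5, Ndufa2, Ndufb5, Mrpl12, Mrps18a, Fos, Tnfrsf12a, Plvap and Apln were named after their values were seen.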

How the data were processed

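Lung RNA of 3 litters a stage was hybridised to 1-colour Affymetrix rat arrays, total and polysomal RNA of each lysate on an array each. The deposited values are signal intensity per probe set on a linear scale, scaled by the authors to a trimmed mean of 150 on each array, as the values show. GCOS 1.4 made them, per the submitters' processing notes, and the signal algorithm is not given in the sources used here. Array medians differed by at most 1.424 times, so no rescaling was applied. With arrays, the number of arrays limits the precision.

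Control probe sets (57) were left out, and 21675 of 31099 probe sets with a signal over 40.8 (the 40th percentile) in at least 3 of the 18 arrays were kept. The constant 5.5 (the 10th percentile) was added before log2, which understates changes of dim genes. The ratio, log2 polysomal minus log2 total signal of a lysate, was modelled in limma (version 3.58.1, R version 4.3.3; 3 stage means over 9 lysates, 6 residual degrees of freedom, variance trend). Total and polysomal changes came from 1 limma fit of the 18 arrays (6 group means, 12 residual degrees of freedom). P-values were adjusted by Benjamini-Hochberg over all kept probe sets, and a call is an adjusted p under 0.05. Arrays of a lysate deviated together (r of 0.186 to 0.488 over probe sets in 6 of 6 lysates), which the ratio takes into account and the fit of arrays does not. A gene is its kept probe set of highest mean. Of the kept probe sets, 16095 had 1 gene symbol, 353 several and 5227 none, and 16046 matched RefSeq through the Entrez identifier. Columns of other samples left out numbered 0.

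The numbers 1 to 3 of the litters name no shared batch in the labels, but ratio deviations of same-numbered P1 and FD22 lysates correlated at 0.151, 0.114 and 0.134 over probe sets, all over 0.1, a pairing that comes from the data alone. The ratios, errors and p-values printed are from the fit without this pairing. With the number added as a replicate block 0 probe sets were called for the ratio (smallest adjusted p 0.254). The genes named are the 12 of smallest p for the ratio in each direction, the member of smallest p in each list, and a fixed set of lung genes, with others named after their values were seen. The members and lists were chosen with earlier results of these data known. Lists are described by counts and medians, without a test. Alternatives varied the constant, the filter, the scaling, the variance trend, the arrays in the fit, the block and single lysates. The scripts were tested on simulated data. Figures were drawn in matplotlib 3.10.9, and summaries used pandas 2.3.3 and numpy 2.4.6 under Python 3.11.15. Sequences are RefSeq's, from GRCr8.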

Additional observations from a re-analysis of the deposited data

How the results depend on the processing

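The ratio change gave 0 calls in each direction under the settings tried, with these exceptions. Probe sets lower at P1 numbered 8 with the constant at the 30th percentile, 12 with the filter at the 60th, 3 when both RNAs had to pass the filter and 3 without the lysate as a block (18 arrays, no replicate block). Leaving out 1 lysate gave 0 to 2 higher (2, Cacna1i and Mlip, without P1 lysate 1) and 0 to 0 lower. With the replicate block the ratio had 0 calls, while polysomal calls were 1223 higher and 1508 lower and total calls 726 higher and 731 lower. Ribosomal protein genes that rose in polysomal RNA numbered 17 with no filter, 18 after quantile normalization, 17 with no variance trend, 17 with only FD22 and P1 arrays, 5 with lysates numbered 1 and 2 only, and 8 to 29 without single lysates, and their median ratio change was 0.35 to 0.59 without single lysates. All settings of this list, and lysates 1 and 2 only, were chosen after seeing the data. With only the FD22 and P1 arrays, polysomal calls were 536 higher and 542 lower and total calls 292 and 177. With lysates 2 and 3 only they were 425 and 387, and 244 and 150. With lysates 1 and 2 only they were 266 and 380, and 90 and 62. Without single lysates they were 499 to 811 and 576 to 1076, and 258 to 405 and 188 to 362. Polysomal over total calls within P1 were 1096 above and 1123 below with lysates 2 and 3 only, 1024 and 1254 with lysates 1 and 2 only, and 1176 to 2592 and 1463 to 3576 without single lysates. Within FD22 they were 1219 and 1515, 0 and 0, and 919 to 1980 and 955 to 2749, and 1920 below after quantile normalization. The ratio change turned sign for Igf2 (-0.052 without FD22 lysate 3, -0.056 without P1 lysate 1), Scnn1a (0.048 without P1 lysate 2), Scnn1b (0.034 without FD22 lysate 1), Vegfa (0.058 without FD22 lysate 2), Sftpa1 (-0.060) and Sftpb (-0.093, both after quantile normalization). Without single lysates the ranges were -0.056 to 0.10 for Igf2, -0.19 to 0.048 for Scnn1a, -0.35 to 0.034 for Scnn1b and -0.12 to 0.058 for Vegfa. Settings with fewer lysates or arrays have fewer degrees of freedom; otherwise the cause was not tested. Dim genes, among them most of the 12 with a higher ratio, have ratios that rest on signals near the filter.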

Other observations

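Long noncoding RNAs, which carry few ribosomes, were low on polysomes at both stages. The list of 11 had a median ratio of -1.07 at P1 and -0.78 at FD22, and a median ratio change of -0.16. None was called by limma in either RNA or in the ratio. At an unadjusted p under 0.05 the ratio was lower for 3 and higher for 0 (4.2% and 2.93% of probe sets). Snhg4, a host gene of small nucleolar RNAs, had lysate ratios of -1.62, -1.72 and -1.44 at P1 and -1.12, -0.65 and -0.57 at FD22, at polysomal signals below the filter. Erythroid genes also had low ratios, with list medians of -0.79 at P1 and -0.66 at FD22.

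Of 52 cell cycle and DNA replication genes, 14 fell and 1 rose in polysomal RNA and 12 fell and 1 rose in total RNA (5.79% and 2.31% of all genes fell), with a median ratio change of 0.00. The numbers that fell in polysomal and in total RNA were 5 and 2 without P1 lysate 1, 7 and 7 without P1 lysate 2, 9 and 4 without P1 lysate 3, 7 and 3 without FD22 lysate 2, and 18 and 19 without FD22 lysate 3. Of 22 cholesterol synthesis genes and their regulators, 7 fell in polysomal and 6 in total RNA and 0 rose in either by limma (0 higher in either at an unadjusted p under 0.05), with a median ratio change of -0.04. Here the numbers were 4 and 2 without FD22 lysate 2, 5 and 3 without P1 lysate 1, 4 and 4 without P1 lysate 2, and 6 and 3 without P1 lysate 3. Insig1 belongs to this list and had the smallest p of its ratio changes.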
